A study of Mus musculus with 2 samples.

Results

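In mouse fetal liver RNA, 2394 splice junctions joined 2 known splice sites in a combination missing from the annotation. They were taken from 914099 junctions on the mm9 assembly, of which 168883 matched an annotated intron (Ensembl 65 models). A member had to match no annotated intron, to have at least 5 reads in each of the replicates R1 and R2, and to begin and end at sites that annotated junctions on the same chromosome and strand also used. Of the members, 1744 (72.9%) had both sites in 1 annotated gene, which is the pattern that exon skipping leaves. The other 650 (27.2%) joined sites of different genes. Reads of R1 and R2 chose the members, so their read levels are a description and carry no test against other junctions.

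RNA splicing removes introns by joining the end of one exon to the start of another. When the machinery passes over an exon and joins its neighbours, the exon is skipped, and the protein keeps its reading frame only if the skipped length is a multiple of 3. A skip that shifts the frame often brings an early stop codon, and transcripts with a stop well upstream of the last junction are known targets of nonsense-mediated decay. A join between genes can come from read-through of neighbouring genes. It can also be listed where sequence reads fit several nearly identical gene copies.

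The RNA came from liver of C57BL/6J mouse embryos at day 14.5, when the organ makes red cells as well as being the developing liver. The labels give polyadenylated, rRNA-depleted RNA above 200 nt, in stranded paired-end libraries, with male and female littermates pooled and no treatment or altered genotype named. There is 1 group of 2 samples that the labels number as biological replicates, so the data allow comparisons between kinds of junction and between replicates. It is not stated which library is R1 and which is R2.

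The junction table held 87568498 reads in R1 and 66913746 in R2. In the gene tables all 8 hepatocyte markers and all 6 erythroid markers had at least 1 TPM (relative transcript abundance, scaled to length and depth) in both libraries, as did the 4 markers each of granulocytes, macrophages, megakaryocytes, endothelium and stellate cells. Of 4 neural markers none reached 1 TPM in both, and their summed level was 1.1 TPM in replicate 1 and 4.6 TPM in replicate 2. Of 4 gut and pancreas markers 1 did, and of 4 muscle markers 2 did. In tissue RNA, fewer cells of a type and less RNA per cell cannot be told apart.

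The skipped exons below show what the within-gene junctions leave out. They were chosen from the named genes to include skips that kept the frame, skips that lost it, frequent and rare ones, and 1 whose skip percent differed between replicates. Each line gives 20 bases of the exon before, the skipped exon in capitals and 20 bases of the exon after, 5′ to 3′ on the coding strand. Sequences are those of GENCODE M21 transcripts on GRCm38, and every skipped exon shown is coding.
Ptbp2: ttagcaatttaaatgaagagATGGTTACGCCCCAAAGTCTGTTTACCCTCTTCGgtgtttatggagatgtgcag
Snx22: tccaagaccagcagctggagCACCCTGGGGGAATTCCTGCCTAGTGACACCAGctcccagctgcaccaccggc
Stxbp5: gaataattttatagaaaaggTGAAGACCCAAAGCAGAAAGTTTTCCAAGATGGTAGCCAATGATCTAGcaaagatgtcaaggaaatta
Uros: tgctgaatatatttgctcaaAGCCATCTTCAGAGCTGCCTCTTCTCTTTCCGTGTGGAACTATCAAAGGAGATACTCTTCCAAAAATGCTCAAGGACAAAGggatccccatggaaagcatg
Ndufs7: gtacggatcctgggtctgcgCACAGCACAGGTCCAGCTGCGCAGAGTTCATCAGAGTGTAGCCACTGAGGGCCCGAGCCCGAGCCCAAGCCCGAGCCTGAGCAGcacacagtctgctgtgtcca
Afp: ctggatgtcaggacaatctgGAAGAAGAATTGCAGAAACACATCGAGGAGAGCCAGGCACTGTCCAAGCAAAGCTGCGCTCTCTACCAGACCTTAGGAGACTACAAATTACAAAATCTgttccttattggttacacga
Kif20b: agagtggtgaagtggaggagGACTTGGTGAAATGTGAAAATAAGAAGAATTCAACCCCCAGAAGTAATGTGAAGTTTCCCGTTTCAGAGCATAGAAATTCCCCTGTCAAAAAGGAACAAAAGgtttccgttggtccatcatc
Tmod1: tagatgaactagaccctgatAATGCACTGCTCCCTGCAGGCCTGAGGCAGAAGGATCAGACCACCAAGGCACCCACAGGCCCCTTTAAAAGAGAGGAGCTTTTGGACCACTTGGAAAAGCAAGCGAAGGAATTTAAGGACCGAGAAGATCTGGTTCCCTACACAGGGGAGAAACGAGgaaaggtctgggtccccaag

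On GRCm38 the exon of Ptbp2 lies at chr3:119724612-119724645 (minus strand, 34 bases), that of Snx22 at chr9:66067780-66067812 (minus, 33 bases) and that of Stxbp5 at chr10:9784188-9784235 (minus, 48 bases). The exon of Uros lies at chr7:133691086-133691166 (minus, 81 bases) and that of Ndufs7 at chr10:80253074-80253157 (plus, 84 bases). The exon of Afp lies at chr5:90504331-90504428 (plus, 98 bases), that of Kif20b at chr19:34972397-34972498 (plus, 102 bases) and that of Tmod1 at chr4:46078314-46078470 (plus, 157 bases). On mm9 the junctions that skip them span chr3:119427105-119428983 in Ptbp2, chr9:65915388-65915933 in Snx22, chr10:9497870-9504138 in Stxbp5 and chr7:140882277-140889351 in Uros. The others span chr10:79715179-79716404 in Ndufs7, chr5:90932733-90933975 in Afp, chr19:35044608-35047348 in Kif20b and chr4:46074007-46096415 in Tmod1. The lengths for Snx22, Stxbp5, Uros, Ndufs7 and Kif20b are multiples of 3, and those for Ptbp2, Afp and Tmod1 are not. Skipping the Ptbp2 exon brings a stop codon (capitals) 27 bases after the join, counted to the end of the stop and shown here after 20 bases of the exon before.
Ptbp2 joined: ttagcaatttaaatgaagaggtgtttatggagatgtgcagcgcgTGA

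Reads of the within-gene members were low. Their summed reads of R1 and R2 had a median of 26, 164 members reached 100 and 2 reached 1000. Together they made 0.0551% of all junction reads. The between-gene members had a median of 60 summed reads, 255 reached 100 and 56 reached 1000, with the highest at 11258380. Of their 24941626 reads, 98.7% lay on 4 junctions between globin genes, and the remaining junctions held 322849.

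**Figure D1:**
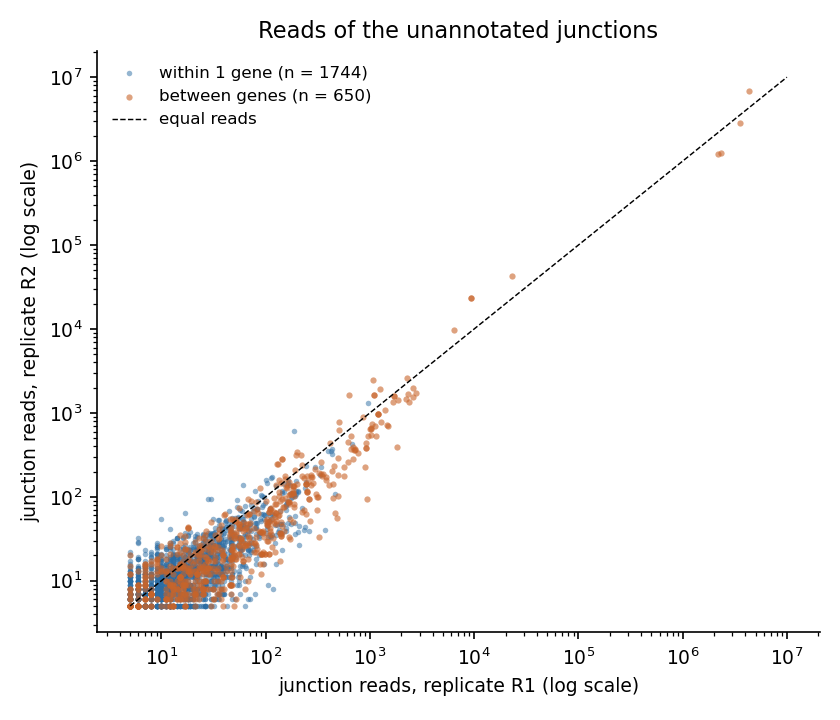
Reads of each member in replicate R1 (horizontal, log scale) and in replicate R2 (vertical, log scale), with 1744 junctions within 1 gene in blue, 650 between genes in orange and a dashed line at equal reads. The 4 globin junctions stand alone at the upper right, with the highest at 11258380 summed reads, while within-gene members end at 2283 summed reads.

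At the edge of the rule, 343 members had exactly 5 reads in their lower replicate, and 540 candidates just outside had 4. Their level was measured as a skip percent, 100 times the skip reads over skip plus inclusion reads. Inclusion is the mean of the highest annotated junction that leaves the shared start and the highest that enters the shared end inside the skipped interval. Within genes the median skip percent was 3.4% for members at 5 reads and 2.68% for candidates at 4. Among the 18270 unannotated junctions that met the read minimum, 13.1% joined 2 known sites, 41.9% used 1 known site (7648 junctions) and 45% used none (8228 junctions). Median summed reads were 31, 28 and 34 in these classes.

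Most within-gene members passed over a single exon. Along 1 annotated transcript, 1458 skipped 1 exon, 145 skipped 2, 24 skipped 3 and 8 skipped more. The remaining 109 joined sites of different transcripts of the gene. The longest chain was in Aass, the enzyme that starts lysine breakdown, where exon 1 was joined to exon 12 over 10 exons with 21 reads in R1 and 23 in R2. In Gon4l exon 3 was joined to exon 11 over 7 exons (58 and 21 reads). An annotated junction of 5830417I10Rik, which shares 21 between-gene joins with Gon4l, also had 58 and 21 reads. The reads of this Gon4l skip therefore cannot be assigned with certainty. In Tnc, which encodes the matrix protein tenascin C, exon 9 was joined to exon 15 over 5 exons and 1365 bases (25 and 20 reads). The Tnc skip percent was 82% in R1 and 72.7% in R2, so the form without these exons had more reads than the form with them in both replicates.

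A skip percent could be given for 1656 within-gene members, and for most of them skipping was the minor path. The median was 5.12%, with a middle range from 1.83% to 13.5%, and 1137 members (68.7%) lay under 10%. At least 20% was reached by 290 members and at least 50% by 104. The median was 4.56% in R1 and 5.43% in R2. Junctions that skip an exon and are annotated, measured the same way, had a median of 68.8% over 3016 junctions, and 14.8% of them lay under 10%. The minimum on skip reads shaped these values in members, since a weakly expressed gene can reach it only through frequent skipping. In host genes under 1 RPKM (reads scaled to length and library depth) the median skip percent was 36.2% (136 members), and in genes of at least 100 RPKM it was 0.225% (41 members).

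**Figure D2:**
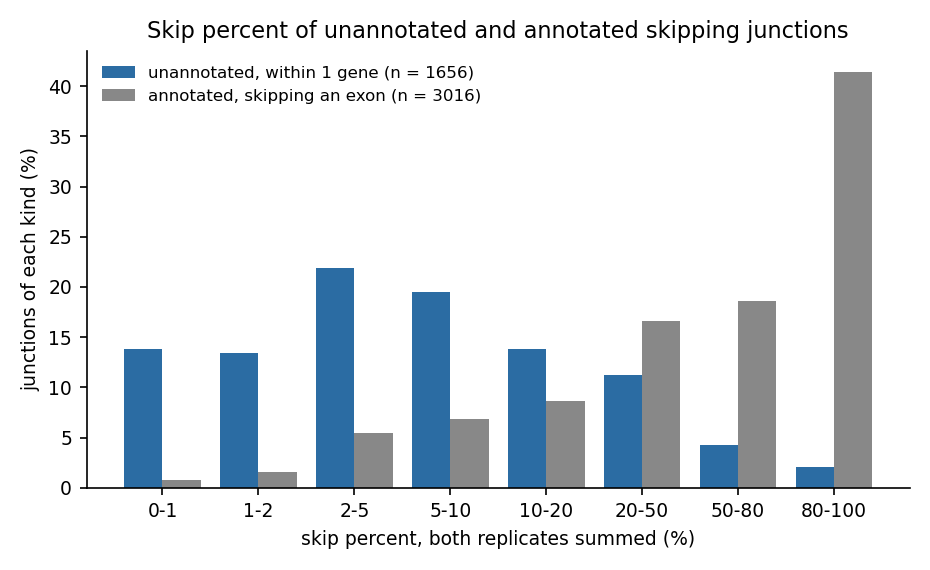
Share of junctions (vertical, %) in classes of skip percent (horizontal, both replicates summed) for 1656 unannotated members within genes in blue and 3016 annotated skipping junctions in grey. Members are most frequent from 2% to 10%, whereas 41.5% of annotated skipping junctions lie at 80% or above.

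Some regulators of splicing held frequent skips. Of 20 members with a skip percent in splicing factor genes, 6 reached 10%, and 31.3% of all within-gene members with a skip percent did. Ptbp2, a repressor of exon inclusion related to the polypyrimidine tract protein, had 72 reads in R1 and 55 in R2 for the join of exon 9 to exon 11. Its skip percent was 70.2% in R1 and 80.3% in R2, or 75.3% ± 7.11 (SD, n = 2). In Clk4, a kinase that phosphorylates splicing factors, the join of exon 2 to exon 4 over 67 bases had 111 and 73 reads, with skip percents of 83.5% and 75.3%. At these sites skipping was the more frequent path in each replicate in both genes. The Clk4 value refers to sites along a 7-exon transcript and not to the whole gene. Inclusion junctions there had 29 and 30 reads before the exon and 15 and 18 after it. U2af1, which recognises the 3′ splice site, held a join with 72 and 39 reads. Its sites belong to different transcripts, and no annotated junction used either site inside the interval, so no skip percent was defined.

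In Snx22, a sorting nexin, the 33-base exon was skipped with 425 reads in R1 and 349 in R2, and its skip percent was 54.4% and 59%, or 56.7% ± 3.23 (SD, n = 2). In Sec31a, a coat component of vesicles leaving the endoplasmic reticulum, a 39-base exon was skipped with 196 and 155 reads (57.1% and 57.6%). In Evl, an actin regulator, exon 1 was joined to exon 3 with 157 and 83 reads, and in Ppfia1, a liprin, exons 24 and 25 were passed over with 197 and 116 reads. Skipping held 99.1% and 99.4% of Evl, and 99.2% and 97.5% of Ppfia1. In Evl and Ppfia1 the annotated exon itself was nearly unused, with at most 4 inclusion reads on either side in either replicate. The Serpinh1 join, in the gene of a collagen chaperone, was like them at 97.6% and 98.1% (673 and 422 reads). Sec31a, App, Khk, Kif23, Erg, Igf1, Slc4a1, Pklr and Pigq were named after their values were seen.

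Several cassette exons of widely studied genes were in the set. In App, the amyloid precursor protein gene, the join of exon 7 to exon 9 over 57 bases (chr16:85030611-85043820, minus strand) had 158 reads in R1 and 79 in R2, and its skip percent was 56% and 53.9%. The annotated junctions into and out of the skipped exon had similar read numbers, 128 and 52 on one side and 120 and 83 on the other. In Khk, the ketohexokinase gene, which has a pair of alternative exons of 135 bases each, the junction passed over both of them with 237 and 129 reads. Against the more frequent of the pair its skip percent was 57.3%, and against all annotated junctions inside the interval it was 46.8%. Erg, a transcription factor of blood and vessel cells, skipped a 72-base exon with 28 and 22 reads (52.8% and 48.9%). Igf1, a growth factor gene, joined exon 1 to exon 3 with 17 and 64 reads (54% and 68.5%). Its inclusion junctions had 2 and 23 reads on one side of the exon and 27 and 36 on the other. In R1 the more frequent path of Igf1 therefore depends on which side is counted.

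In Kif23, a kinesin needed for cytokinesis, a 312-base exon was skipped with 167 reads in R1 and 57 in R2, and the skip percent was 48.3% and 38.6%. Kif20b, another mitotic kinesin, skipped the 102-base exon shown above with 86 and 37 reads (39.6% and 42.3%). In Mki67, the gene of the proliferation marker Ki-67, a 960-base exon was skipped with 190 and 49 reads, at 27.3% and 20.9%. Cdk1, the kinase that drives mitosis, joined exon 1 to exon 3 with 48 and 6 reads, at 1.1% and 0.798%. The first 3 therefore had skip percents above 20% in both replicates and Cdk1 close to 1%. Of 42 cell cycle genes with annotated junctions at the minimum, 9 (21.4%) held a member, against 10.8% of all 12773 such genes. There were 11 members in all, with a median skip percent of 1.63%.

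Red cell genes held many members with low skip percents. Of 24 red cell membrane and skeleton genes, 15 (62.5%) held at least 1 member, and of 28 heme, iron and globin genes 14 (50%) did. Over all 12773 genes with an annotated junction at the minimum, 10.8% did. The median skip percent was 1.05% over the 22 members of the membrane list that had one and 0.264% over 29 of the heme list. Host genes were expressed at a median of 4.68 RPKM against 1.74 RPKM for all those genes. The part of expression level in the share of any gene list was not tested.

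In the membrane list, Tmod1, which caps actin filaments, skipped its 157-base exon with 164 reads in R1 and 49 in R2. The skip percent was 22.5% and 22.1%, so the replicates were far apart in reads and close in the share skipped. Kel, a blood group glycoprotein, joined exon 8 to exon 11 with 83 and 72 reads (2.65% and 2.82%). Slc4a1, the anion exchanger of the red cell, joined exons 1 and 3 of a short 5-exon transcript with 28 reads in each replicate, and its skip percent of 51.9% and 70.9% refers to that transcript's junctions only. Inclusion junctions there had 1 read in each replicate on one side and 51 and 22 on the other, so the value depends on the side counted. Ermap, an erythroblast membrane protein, held a join with 113 and 55 reads and no defined skip percent. The members of this list ranged from 0.0862% to 59.9%.

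In the heme pathway, Uros, whose enzyme makes uroporphyrinogen III, skipped an 81-base exon with 71 reads in R1 and 47 in R2 (5.56% and 6.84%). Alas2, the red cell enzyme that starts heme synthesis, had 4 members. Hbb-bs and Hbb-bt, the adult beta-globin genes, each joined exon 1 to exon 3, with 240 and 44 reads in the former and 202 and 38 in the latter. These were the lowest skip percents of the list, at 0.00507% for Hbb-bs and 0.00452% for Hbb-bt. Since these genes are near-identical copies, their reads cannot be assigned with certainty. Outside the lists, Tmem14c, a mitochondrial membrane protein needed for heme formation, had the highest reads of all within-gene members, with 961 and 1322 for the join of exon 1 to exon 3 (chr13:41111768-41113074, plus strand). Pklr, the pyruvate kinase of red cells and liver, skipped a 92-base exon with 53 and 75 reads (2.39% and 3.17%). Pigq, an enzyme of the membrane anchor pathway, held the most members of any gene, 11.

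Members in a list of erythroid transcription genes, which also holds the receptor gene Epor, had skip percents near the median of all members. Of the 20 genes listed 8 (40%) held a member, against 10.8% of all genes with an annotated junction at the minimum. The median skip percent was 5.08% over 9 members. Lmo2 joined exon 1 to exon 3 with 242 reads in R1 and 151 in R2 (8.72% and 9.65%). Tal1, its partner in red cell formation, joined exon 1 to exon 3 of a 3-exon transcript with 59 and 55 reads (11% and 9.31%). Its inclusion junctions had 75 and 118 reads before the exon and 878 and 954 after it. The Tal1 skip percent therefore depends on which side is counted. Ikzf1, which encodes the Ikaros factor, joined exon 4 to exon 6 with 33 and 35 reads (7.37% and 8.37%). With the mean of both sides as inclusion, the replicates differed by less than 2 percentage points in all 3.

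Of 49 secreted and hepatocyte genes 17 (34.7%) held a member, against 10.8% of all genes with an annotated junction at the minimum. None of the 22 members reached a skip percent of 10%, and their median was 0.427%. Afp, the main serum protein of the fetus, skipped its 98-base exon with 176 reads in R1 and 111 in R2, which was 0.132% and 0.126% of its path. Apoa2, an apolipoprotein of high-density particles, joined exon 1 to exon 3 with 429 and 323 reads (1.42% and 1.59%). Ttr, the thyroid hormone carrier, skipped the exon before its last with 209 and 45 reads (0.483% and 0.259%). Proc, the anticoagulant protein C, had 428 and 371 reads for a join of sites from different transcripts.

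Mitochondrial genes made up 3 more of the members with most reads. Ndufs7, a subunit of respiratory complex I, had 186 reads in R1 and 612 in R2 for the skip of its 84-base exon. Mrpl30, a protein of the mitochondrial ribosome, joined exon 1 to exon 3 with 336 and 226 reads (35.8% and 30.1%). Atpif1, the inhibitor of the ATP synthase, joined exon 1 to exon 3 with 462 and 107 reads, and its skip percent was 2.3% and 2.01%. Other members of the highest reads were Xpnpep1, an aminopeptidase (300 and 225 reads, 44.9% and 60.8%), and H2-Q10, a class I molecule secreted by liver, which passed over 2 exons and 546 bases (242 and 236 reads). Sp2, a transcription factor, had 332 and 182 reads at 92.5% and 91.2% for sites of different transcripts. Gm20390, a gene model that carries a number only, joined exon 4 to exon 8 with 399 and 349 reads (9.73% and 18.9%).

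Of 57 splicing factors 18 (31.6%) held a member, against 10.8% of all genes with an annotated junction at the minimum. There were 25 members, with a median of 4.78% over the 20 that had a skip percent. Of 37 chromatin genes 8 (21.6%) held a member. Among them, Brd8 had 44 reads in R1 and 24 in R2 (11.5% and 11.2%). Kmt2c, a histone methyltransferase, had 78 and 59 reads. Of 63 ribosome and translation genes 9 (14.3%) held a member. Rpl17, a protein of the large subunit, skipped a 41-base exon with 69 and 27 reads, and its skip percent was 55.9% and 58.1%. Inclusion junctions at these sites had 62 and 25 reads on one side and 47 and 14 on the other. The Rpl17 value refers to these sites and not to the whole gene. Rpl10a had 34 and 19 reads (9.1% and 5.86%), and Eif4g1, a scaffold of translation initiation, had 47 and 23 (6.77% and 4.94%). Among members of at least 50 summed reads, the highest skip percents also included Arhgdib at 97.6%, Strada at 98.5%, Usp34 at 96.3%, Capn15 at 94.1%, Mcmdc2 at 93.3%, Ube2f at 92.5%, Gtf2h2 at 89.7% and Lzic at 89.7%. The Arhgdib value refers to the junctions of a short 3-exon transcript only, and the other members in this gene stood at 1.17% and 3.53%.

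**Figure D3:**
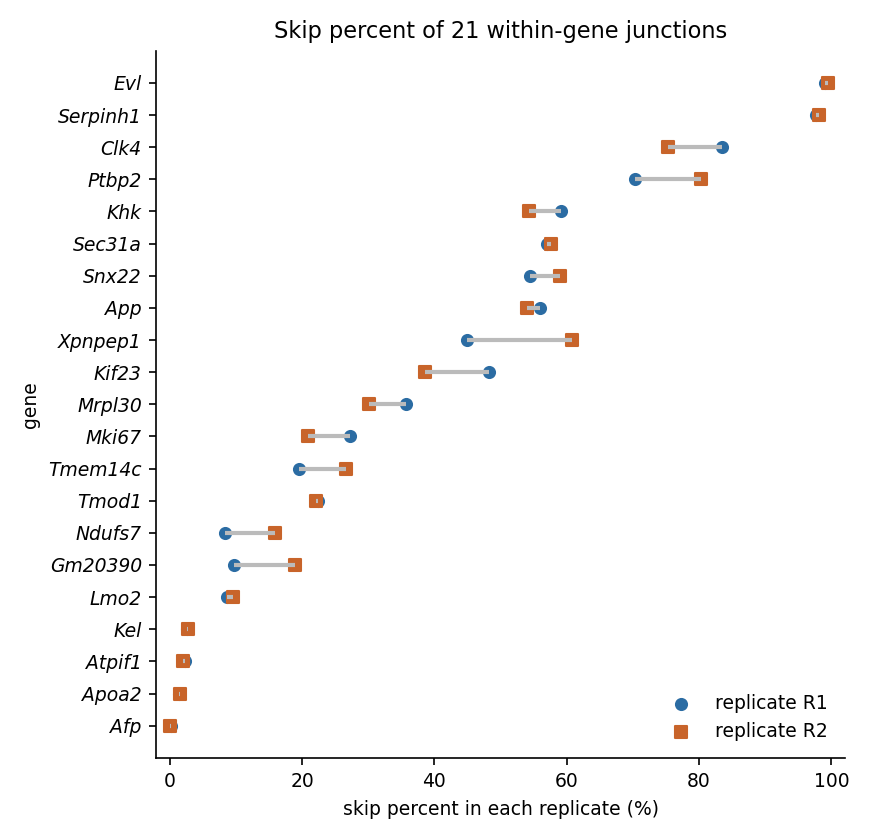
Skip percent (horizontal, %) in replicate R1 (blue circles) and R2 (orange squares) for 21 within-gene junctions, with a grey line joining the replicates of each gene. Evl and Serpinh1 lie above 97% in both replicates and Afp near 0.13%, and the gap between replicates is widest for Xpnpep1, at 44.9% and 60.8%.

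Skipped exons were slightly shorter than internal exons in general. The single skipped exons had a median of 114 bases, against 123 bases for 103960 annotated internal exons whose junctions met the same minimum. Exons of at most 51 bases made 7.55% of the skipped ones (110 exons) and 4.35% of the internal ones. The exon right after the first was the one skipped in 23.5% of cases, and 18.3% of all internal exons held that place. The exon before the last was skipped in 16.8%, against 21.8% of internal exons. The median guanine and cytosine content of coding skipped exons was 52.5%, and that of 68932 coding internal exons 51.2%. The final base was G in 77.7% of coding skipped exons (Wilson 95% interval 75.2% to 80.1%) and in 80.5% of coding internal exons (80.2% to 80.8%). These intervals cover counting error only.

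Whether the skipped length was a multiple of 3 varied with the skip percent. Over all 1458 single skips, 532 (36.5%, interval 34.1% to 39%) had such a length, and 39% of internal exons did. Of 1207 skips under 20%, 34% were multiples of 3 (31.4% to 36.7%), and of 250 skips at 20% or more, 48.8% were (42.7% to 55%). The intervals cover counting error only and treat each member as independent. Of the 290 within-gene members at 20% or more, 95 lay in genes under 1 RPKM and 181 in genes of 1 to 10 RPKM. The part of expression level in this difference was not tested. Annotated single skips stood at 52% (50.2% to 53.8%, 2923 junctions), closer to the frequent unannotated skips than to the rare ones. Within the coding part the shares were 35% of 988 skips (32.1% to 38.1%) and 53.5% of 129 (44.9% to 61.9%). Skip percent depends on the reads that chose the members, and exon length does not.

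For 1250 members the skipped exons lay inside the coding part of a GENCODE M21 transcript with the same exon structure. Of these 475 (38%) kept the frame, and in 4 of the 475 the join itself made a new stop. The frame was lost in 775, and in 580 of them (74.8%) the first stop lay more than 50 bases before the last junction. Ptbp2, Tmod1, Afp and Pklr were of this kind, and Snx22, Ndufs7, Uros, Kif20b, Mki67 and Sec31a kept the frame. Another 188 members skipped exons at least partly outside the coding part, as Tmem14c, Lmo2, Tal1, Apoa2 and Mrpl30 did.

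Later annotation and assembled transcripts held part of the set. Of 1626 within-gene members whose sites could be carried to GENCODE M21 by transcript and exon number, 340 (20.9%) were introns of that annotation. Among single skips the share was 8.85% at a skip percent under 1% and 40.3% at 50% or more. The authors' de novo models, assembled from the same reads, held 180 within-gene members (10.3%). They held 3 of 1137 members under 10% and 164 of 519 (31.6%) at 10% or more, so nearly all assembled skips lay above 10%. Kif23, Kif20b, Ptbp2, Erg, Mrpl30 and Kel were M21 introns, and Snx22, Tmem14c, Tmod1 and Afp were not.

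**Figure D4:**
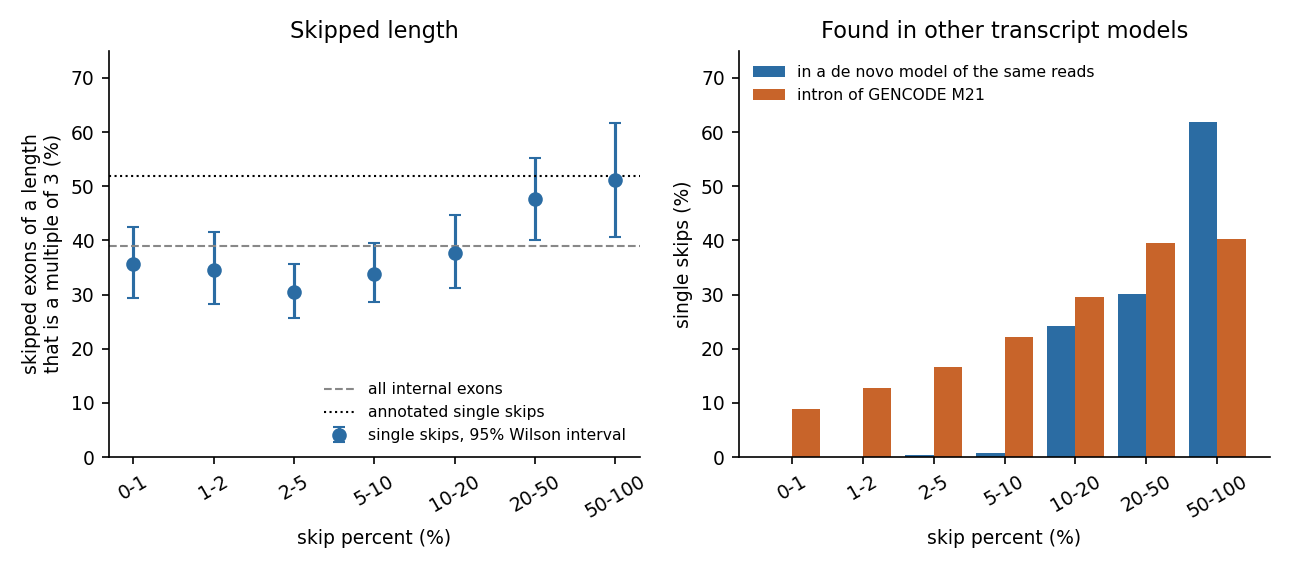
Left, share of single skipped exons whose length is a multiple of 3 (vertical, %, with 95% Wilson intervals) by skip percent (horizontal), with all internal exons (39%, dashed) and annotated single skips (52%, dotted). Right, share of the same skips held by a de novo model (blue) or by GENCODE M21 (orange), where de novo shares stay under 1% below a skip percent of 10% and reach 61.9% at 50% or more.

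Some skipping transcripts had their own line in the mm10 transcript tables, here by labelled replicate. For 86 of the 340 M21 introns such a transcript was listed, and 75 had at least 0.1 TPM in both libraries. The Mrpl30 transcript stood at 39.8 TPM in replicate 1 and 15.7 TPM in replicate 2, which the authors' estimate put at 56.8% and 39.4% of the gene. The Kel transcript stood at 8.83 and 5.81 TPM, or 2.88% and 2.38% of the gene. For Kel the junction measure was 2.73% and for Mrpl30 33.2%. The measures lay further apart elsewhere. The Mcmdc2 transcript was put at 66.5% and 60.3% of the gene, beside a skip percent of 93.3%. The Ube2f transcripts were put at 13.7% and 9.45% for one and 2.35% and 4.67% for the other, beside a skip percent of 92.5%. Skip percent counts only junctions at the shared sites, and the transcript estimate covers the whole gene. The Erg transcript was listed at 1 TPM in replicate 1 and at 0 in replicate 2. The deposited exon RPKM could not serve as a readout of single exons, since 55.6% of neighbouring exon pairs carried equal values. The median log2 ratio of skipped exon to flanking exons was 0 for the members and for all internal exons.

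Replicates were compared by a two-sided exact binomial test on the reads of each junction, over all 162376 junctions with at least 10 reads, with Benjamini-Hochberg adjustment. Calls needed an adjusted p under 0.05 and a 2-fold difference relative to all junction reads. Of the members 385 (16.1%) were called, 100 higher and 285 lower in R2. Among all junctions with at least 5 reads in each replicate, 21.1% were called, 2.82% higher and 18.2% lower. With at least 20 summed reads, 390 of 1718 members were called, against 22.9% of all such junctions. The gap between members and all junctions therefore depends on the read minimum. The minimum in each replicate limits the difference a member can show. Of within-gene members 237 (13.6%) were called and of between-gene members 148 (22.8%). With library sizes taken from annotated junctions outside globin genes, the median log2 ratio of R2 to R1 over all junctions moved from -0.33 to 0.02. The calls became 210 higher and 156 lower, against 16.4% of all junctions, so the split of calls between higher and lower changes with how the globin reads are scaled. Every log2 ratio moves by the same amount, and no call changes its direction. With 2 libraries of 1 group, each p-value compares the libraries and no condition.

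The largest differences in reads are given relative to all junction reads. Gas5, a noncoding host of small nucleolar RNAs, had 117 reads in R1 and 8 in R2 (log2 ratio -3.4), and the inclusion junctions of that exon had 2039 and 251 reads on the side before it and 3065 and 1706 on the side after it. Tpm1, a tropomyosin gene, had 63 and 5 (log2 ratio -3.14), and Apol11b had 106 and 9 (log2 ratio -3.1). Emc8 had 10 and 55 (log2 ratio 2.79), Psmb3, a proteasome subunit, 6 and 32 (2.71), and a second Ndufs7 join, of exon 1 to exon 4, 6 and 29 (2.57). Adjusted p ran from 7.57e-19 for Gas5 to 1.85e-05 for the Ndufs7 join by the exact binomial test. With the library sizes outside globin genes every log2 ratio is 0.35 higher, and all 6 keep their direction.

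Skip percent does not depend on library size, and it was compared between replicates with a minimum difference of 10 percentage points. Members of low skip percent could hardly reach that difference, and 1137 of the 1656 lay under 10%. Fisher's exact test of skip and inclusion reads, two-sided and adjusted over 2717 unannotated within-gene candidates, called 42 of 1656 members (2.54%) at 10 percentage points or more. Without the minimum difference 145 members were called. Of the candidates 3.61% were called, and of 3534 annotated skipping junctions 5.18%. The annotated ones lay at higher skip percents, with a median of 68.8% at the read minimum, so these shares are not directly comparable. In 31 of the 42 the skip percent was higher in R2 and in 11 lower. The median absolute difference between replicates was 1.58 points over the members, and 1485 differed by under 10.

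The members called with most change had few reads. Stxbp5, a binding protein of the vesicle fusion machinery, had 7 reads in R1 and 15 in R2, and its skip percent was 34.2% and 93.8% (exact adjusted p = 0.00492). Nudt13 had 6 and 12 reads (9.68% and 52.2%), and Smarce1, a chromatin remodelling subunit, 12 and 27 (22.2% and 60.7%). In the other direction Evi5l had 89.6% in R1 and 38.5% in R2 with 30 and 5 reads, Tpcn2 63.6% and 21.7% with 35 and 10, and Eps15l1 55.1% and 23.5% with 73 and 22. Their exact adjusted p ran from 0.000174 for Eps15l1 to 0.0172 for Evi5l. Among members of more reads, Xpnpep1 had 44.9% in R1 and 60.8% in R2 (exact adjusted p = 9.37e-05). Ndufs7 had 8.37% and 15.9% (exact adjusted p = 4.72e-15), Tmem14c 19.5% and 26.6% (exact adjusted p = 1.72e-14) and Gm20390 9.73% and 18.9% (exact adjusted p = 1.06e-18). These 3 differed by Fisher's exact test but by less than the 10 points a call required. Inclusion entered that test as the rounded mean of both sides. The p-values of both replicate tests treat reads as independent and cover counting error only, not the variation between libraries.

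Joins between genes were dominated by gene copies. For 523 of the 650 members the 30 bases on each side of the junction could be compared with the own junction of the partner gene in M21 transcripts. In 482 (92.2%) at least 27 of 30 bases were alike on at least 1 side, in 393 on both sides, and in 215 all 60 bases were the same. In 41 members neither side was alike, and 127 could not be compared. Examples of the first kind follow, with the end of an exon and the start of the next of each gene, 30 bases each, and capitals where the 2 genes differ.
Hba-a1: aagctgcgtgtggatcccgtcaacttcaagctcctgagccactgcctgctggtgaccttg
Hba-a2: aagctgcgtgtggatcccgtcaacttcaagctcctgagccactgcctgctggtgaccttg
Hbb-bs: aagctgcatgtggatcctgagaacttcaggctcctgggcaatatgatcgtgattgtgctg
Hbb-bt: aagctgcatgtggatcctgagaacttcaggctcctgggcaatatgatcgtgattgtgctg
Scd3: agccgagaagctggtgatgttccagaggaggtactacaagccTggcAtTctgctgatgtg
Scd2: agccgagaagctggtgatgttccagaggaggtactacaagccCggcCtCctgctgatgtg
Myl12a: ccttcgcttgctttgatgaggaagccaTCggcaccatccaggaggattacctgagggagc
Myl12b: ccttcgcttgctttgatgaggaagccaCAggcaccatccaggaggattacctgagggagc

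All these bases are coding, on GRCm38. The 2 exons lie within chr11:32283924-32284465 for Hba-a1 and chr11:32296741-32297298 for Hba-a2 (plus strand), and within chr7:103826534-103827670 for Hbb-bs and chr7:103812524-103813661 for Hbb-bt (minus strand). Those of Scd3 and Scd2 lie within chr19:44235771-44238608 and chr19:44299609-44301444 (plus strand), and those of Myl12a and Myl12b within chr17:70994294-70996271 and chr17:70973133-70975620 (minus strand). Counted from the 5′ end of the 60 bases, Scd3 and Scd2 differ by T43C, A47C and T49C, and Myl12a and Myl12b by T28C and C29A. The alpha-globin and beta-globin pairs show no difference in this window.

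The globin joins had the most reads. The join from Hba-a1 to Hba-a2, alpha-globin genes, at chr11:32184129-32197079 on mm9 had 4338277 reads in R1 and 6920103 in R2. The own junction of Hba-a2 that ends at the same site had 4342776 and 6926742 reads. The second join of this pair had 2338615 and 1234293 reads, beside 2347153 and 1238832 on the own junction of Hba-a2. The joins from Hbb-bs to Hbb-bt had 3526487 and 2830498 reads and 2202766 and 1227738 reads. In 3 of these 4 joins the reads lay within 10% of an ordinary junction of 1 of the genes in both replicates.

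Such closeness was common. In 211 between-gene members (32.5%) the reads lay within 10% of those of an own junction of 1 of the genes in both replicates. Of these 141 had alike exon ends, 70 could not be compared and none was among the 41 with unlike ends. In 100 members a second member shared a splice site and had reads within 1% in both replicates. One example was Serpina1b, which encodes an alpha-1-antitrypsin. The join from Serpina1a had 9358 and 23383 reads, that from Serpina1c 9354 and 23384, and the own junction of Serpina1b 9392 and 23435. Read numbers of these joins are therefore uncertain, and their sum cannot be taken as a number of molecules.

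Other pairs of high reads were also gene copies. Tuba1a and Tuba1b, alpha-tubulin genes, were joined with 23133 reads in R1 and 42645 in R2, and again with 6408 and 9743. Scd3 and Scd2, fatty acid desaturases, were joined with 2263 and 2574 reads, while the own junction of Scd3 had 5 and 15 and that of Scd2 2770 and 3149. Myl12a and Myl12b, myosin light chains, were joined with 2756 and 1739 reads. Serpina1c and Serpina1a were joined with 2588 and 1959 reads, and Serpina1a and Gm8893 with 2613 and 1536. The widest joins, of 543461 and 543450 bases, involved Dynlt1a, a dynein light chain, with 14 and 25 reads and 12 and 13 reads. Next in width was the join from Gm14418 to Gm14296 over 470762 bases, with 6 and 5 reads.

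The 650 joins fell on 272 gene pairs, and 27 pairs held at least 5. Gon4l and 5830417I10Rik had 21, C4a and C4b, complement genes, had 18, and Srp54a and Srp54c, of the signal recognition particle, had 15. Selenbp1 and Selenbp2 had 10, and Dnmt3b and Dnmt3c, DNA methyltransferases, had 7. The partner genes overlapped in 56 members. No annotated gene lay between the partners on their strand in 316 members (48.6%). Among members with alike ends 217 of 482 joined such neighbours, and among those with unlike ends 34 of 41 did.

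**Figure D5:**
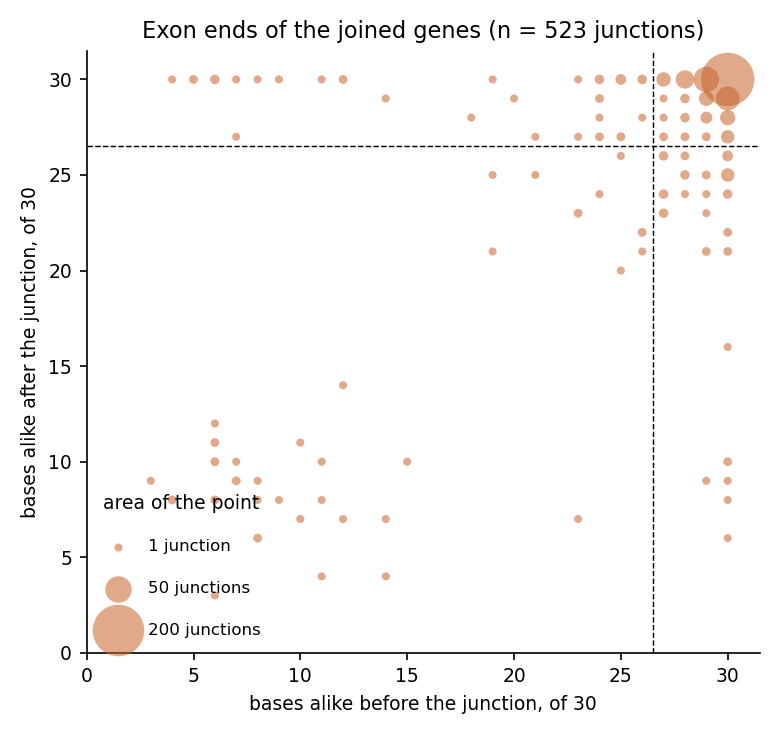
Bases alike between the joined genes, of 30 before the junction (horizontal) and of 30 after it (vertical), for 523 between-gene members, with point area showing the number of junctions and dashed lines at the limit of 27 bases. The point at 30 and 30 holds 215 junctions, and 41 junctions lie below both limits.

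The members with unlike exon ends had few reads, with a median of 29 and a maximum of 200 summed. Those named here were chosen after their values were seen. Rnf139, a ubiquitin ligase, and Ndufb9, a complex I subunit, lie next to each other, and 7 of 30 bases before and 10 of 30 after the junction were alike. The 30 bases of Rnf139 (lower case) and of Ndufb9 (capitals) that meet at chr15:58721050-58767822 on mm9 (plus strand) read as follows.
Rnf139 to Ndufb9: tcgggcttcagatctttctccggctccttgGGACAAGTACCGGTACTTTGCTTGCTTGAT

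This join had 33 reads in R1 and 19 in R2, and it is an intron of M21. The own junctions had 753 and 226 reads in Rnf139 and 2531 and 635 in Ndufb9. Pheta2 and Smdt1, a regulator of the mitochondrial calcium channel, were joined with 119 and 66 reads. The neighbours 6030468B19Rik and Syngr2 were joined with 60 and 39 reads, Hyal3 and a site shared by Hyal1 and Naa80 with 17 and 34, and Aes and Tle2, of a family of transcriptional corepressors, with 37 and 12. In each of these pairs the own junction of the downstream gene at the same site had more reads than the join in both replicates. Upstream this did not hold for all: the own junction had 0 and 1 reads in Hyal3, and 82 and 118 in Pheta2. In the joins of Hyal3 and of Pheta2 the gene models overlap.

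Unlike ends did not exclude related genes. A join from exon 1 of Hbb-bs to exon 3 of Hbb-bt had 167 reads in R1 and 33 in R2, and because it passes over an exon the comparison set unlike positions side by side. Ddx19b and Ddx19a, RNA helicases, were joined with 50 and 32 reads and had 25 and 26 of 30 bases alike, just under the limit. Hba-a1 and Hbq1b, a theta-globin gene, had 65 and 43 reads and 23 of 30 bases alike on each side. Of all 41 members with unlike ends 3 were introns of M21 and 1 was held by a de novo model. Of the 482 with alike ends 4 were introns of M21, among them the second Tuba1a join and the Myl12a join, and none was in a de novo model.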

How the data were processed

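The authors deposited splice junctions on mm9 with a read count for replicates R1 and R2, an irreproducible discovery rate used as a score, and a flag that marked all introns of their Ensembl 65 exon models and no other junction. A second flag in the names was not used. Exon and gene models carry RPKM as another deposited quantity per the file headers. The mm10 gene and transcript tables hold expected counts, TPM and a percent of each gene per the file headers, by labelled replicate, with 102720920 and 65640933 expected counts on genes. The aligner is not given in the sources used here. Reads carry no molecular identifiers.

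Members followed the rule of the opening paragraph. A member lay within a gene when 1 gene held both sites. Transcripts of mm9 and GENCODE M21 (GRCm38) were matched by identifier, exon number and internal exon lengths, with no conversion of coordinates. Stops were read from M21 transcripts. Ratios of reads add 0.5, and RPKM ratios 0.1. The members, gene lists and rules were chosen with earlier results of these data known. Named genes were the 12 within-gene members of highest reads, the 12 of highest skip percent with at least 50 reads, the 3 with most exons skipped and up to 3 per list. Between genes they were the 12 of highest reads and the 3 widest, with the 3 largest replicate differences each way. Some named genes are not reported here. Of 1379 host genes 98.6% had a symbol. Tests used scipy 1.17.1 and numpy 2.4.6 under Python 3.11.15, tables were read with pandas 2.3.3, and plots were drawn with matplotlib 3.10.9.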

Additional observations from a re-analysis of the deposited data

How the results depend on the processing

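The 9 results were recomputed under 35 alternatives. The number of within-gene members (1744) was 2877, 838 and 346 with a minimum of 3, 10 and 20 reads in each replicate, and from 2572 to 3807 when 1 replicate alone had to reach 5. The number of between-gene members (650) was 326 with a minimum of 20, and from 717 to 928 with 1 replicate alone. The median skip percent (5.12%) was 6.36% with the smaller side as inclusion and 9.23% with a minimum of 20 reads, and from 4.56% to 5.43% in single replicates. The share of within-gene members held by a de novo model (10.3%) was 19.1% with a minimum of 20 reads. Members whose skip percent differed between replicates (42) were 74 with the smaller side and 145 without a minimum difference. The share of between-gene members that joined neighbours (48.6%) was 68.6% among protein-coding genes. The share of skipped lengths that are multiples of 3 stayed within its 95% interval under every alternative run. The number of members whose reads differed between replicates (385) stayed within a factor of 1.5, the limit set for it. It was 366 with library sizes outside globin genes, 390 of 1718 tested with at least 20 summed reads, and 561 without a fold minimum. The split into higher and lower calls changed with the globin scaling. The exon RPKM ratio was 0 throughout, which says nothing about stability, since equal values fix it. No paired analysis was possible because there is 1 group. Depth limits the set, since the same skip percent gives fewer reads in a gene of lower expression.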
